A study of Mus musculus with 6 samples.

Results

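The superoxide dismutases Sod1, Sod2 and Sod3, catalase (Cat) and the peroxiredoxins Prdx1 to Prdx6 were examined in macrophage cultures from mice without Bach1 and from wild-type mice. The members were fixed by name, and all 10 genes had at least 1 probe, among 20018 genes that could be named on the array. They were read by 15 probes in all, 1 probe for 7 of the genes and several for Cat, Prdx1 and Prdx6. The Bach1 KO group held 3 mice, numbered 947, 948 and 949, and the wild-type (WT) group 3 mice, numbered 1, 2 and 3. All were C57BL/6 animals of 11 weeks, with 2 males and 1 female per genotype, the females being KO 949 and WT 3. Bone marrow cells of each mouse were cultured for 5 days at 37 °C in medium with 10% serum and 10 ng/mL of the growth factor GM-CSF, and the total RNA of each culture was read on 1 single-colour Agilent array. The labels give the genotype as KO without describing the allele. KO 947 shared its slide with WT 1, 2 and 3, and KO 948 and KO 949 lay on another.

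Cells that respire or mount an oxidative burst produce superoxide. Superoxide dismutases turn it into hydrogen peroxide, Sod1 mainly in the cytosol, Sod2 in the mitochondrial matrix and Sod3 outside the cell, where it is bound to matrix. Catalase splits hydrogen peroxide in peroxisomes, and peroxiredoxins reduce it through a reactive cysteine that is then restored, for most of them, by thioredoxin. Bach1 is a heme-binding repressor that pairs with small Maf proteins on antioxidant response elements, the same class of sites that the activator NRF2 uses, and Prdx1 is a known NRF2 target.

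The promoters of 2 of the members are shown because they hold letters of this class of site. RefSeq sequences (GRCm38.p6) from 250 bases before to 50 bases after the transcription start were matched for 8 of the 10 members, not for Sod3 and Prdx6. A core of the antioxidant response element, TGACNNNGC, and the shorter TGANTCA were searched on both strands, where N is any base. Capitals mark the matches.
Prdx1: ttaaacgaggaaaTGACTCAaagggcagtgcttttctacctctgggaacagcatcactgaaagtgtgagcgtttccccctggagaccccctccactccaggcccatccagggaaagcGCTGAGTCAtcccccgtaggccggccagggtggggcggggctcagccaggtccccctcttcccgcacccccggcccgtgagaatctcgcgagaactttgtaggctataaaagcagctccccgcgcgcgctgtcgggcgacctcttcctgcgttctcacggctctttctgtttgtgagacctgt
Sod1: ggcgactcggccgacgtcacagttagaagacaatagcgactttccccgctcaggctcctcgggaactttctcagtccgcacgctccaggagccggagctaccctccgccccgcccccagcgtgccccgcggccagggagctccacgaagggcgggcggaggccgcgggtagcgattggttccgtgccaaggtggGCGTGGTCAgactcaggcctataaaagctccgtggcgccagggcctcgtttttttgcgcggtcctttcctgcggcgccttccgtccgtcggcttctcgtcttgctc
The Prdx1 promoter (chr4:116685349-116685648, plus strand) holds TGANTCA at 2 places, starting 237 and 131 bases before the transcription start, and the second of these overlaps a match to TGACNNNGC on the minus strand that starts 133 bases before it. The Sod1 promoter (chr16:90220512-90220811, plus strand) holds 1 match to TGACNNNGC on the minus strand, 56 bases before the start, and none to TGANTCA. The promoters of Sod2, Cat, Prdx2, Prdx3, Prdx4 and Prdx5 hold neither in this window. Over all 32851 promoters of the same length, 12.4% held TGACNNNGC, 7.81% held TGANTCA and 0.46% held TGANTCA at 2 or more places. These are matches of letters and do not show binding.

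Levels are given on the log2 scale, each background-subtracted signal having been divided by its array's 75th percentile, and differences as KO minus WT on that scale. Between 62.5% and 65.1% of spots were well above background on the KO arrays, against 70.3% to 73.2% on the WT arrays. No spot was saturated. The single Bach1 probe read 1.45, 2.00 and 2.23 in KO 947, 948 and 949 and 2.21, 2.48 and 2.59 in WT 1, 2 and 3, with 1 KO array inside the WT range (limma adjusted p = 0.262). The labels do not say whether it lies in the removed stretch, and it is therefore no check of the genotype. Hmox1, the heme-degrading Bach1 target, read between 7.37 and 7.55 on the KO arrays and between 4.99 and 5.83 on the WT arrays (difference 2.14, adjusted p = 0.0114, and 2.10, adjusted p = 0.0739, when the slide was a block). Of 13 macrophage markers 11 were tested, and all 11 were well above background on all 6 arrays. Of the 11, 8 were higher and 3 lower in KO, with a median difference of 0.13. The scavenger receptor Msr1 (1.35) and the mannose receptor Mrc1 (1.07) passed the threshold as higher, beside 1.14% of all genes. Cd68 and Cd163 were not tested.

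Sod3 was the 1 of the 10 genes that passed the test, as lower in KO, with no KO array well above background. The other 9, among them both intracellular dismutases, catalase and all 6 peroxiredoxins, did not pass the test. Prdx6 lay nearest to the threshold, with a KO level above WT on each of its 4 probes. The tested genes numbered 15736, of which 3.41% passed at an adjusted p under 0.05 in either direction, 1.14% as higher and 2.27% as lower in KO. The median difference of the 10 members was 0.02, with 5 higher and 5 lower in KO, beside a median of -0.01 over all genes. When arrays were scaled to their medians instead, all genes together had a median of 0.21 and each member except Sod3 lay above 0, and 62.5% of calls were then higher in KO, against 33.5% here. The KO and WT arrays did not overlap in 3 of the 10 genes (Sod2, Sod3 and Prdx6), a share close to the 26.9% of all genes tested that behaved so.

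**Figure D1:**
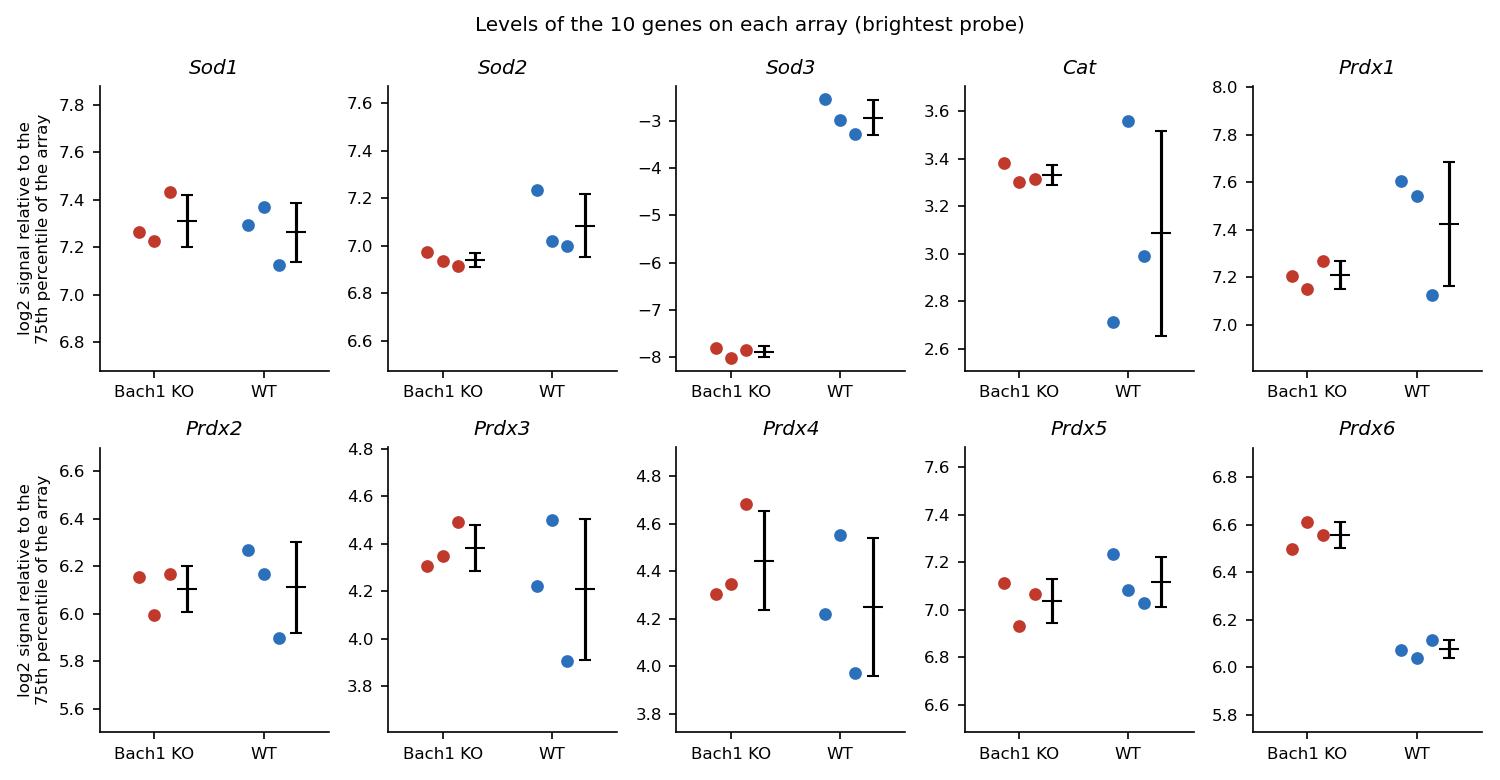
Log2 level of each of the 10 genes on each array, scaled by the array's 75th percentile, with Bach1 KO mice left (red) and WT mice right (blue); the bars beside the points are the mean ± SD of 3 mice, and the y axes differ between panels. Sod3 lies at -8.02 to -7.80 in KO and at -3.27 to -2.53 in WT, Prdx6 lies at 6.50 to 6.61 in KO and 6.04 to 6.11 in WT, and of the other panels only that of Sod2 shows no overlap.

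Among the dismutases, Sod3 encodes the secreted, extracellular enzyme. It read -7.80, -8.02 and -7.86 on KO 947, 948 and 949 and -2.53, -2.97 and -3.27 on WT 1, 2 and 3. No KO array was well above background, whereas all 3 WT arrays were, and the groups lay far apart. The gene met the filter on dim probes through the WT arrays. The measured difference was -4.97 ± 0.21 (SE, n = 3 mice per genotype, limma adjusted p = 0.000554), but since the KO signal is only bounded, the fold is given as a bound. The SE and the p-values of Sod3 rest on KO readings below background. They do not measure how Sod3 varied between KO mice. By the group mean, Sod3 was at least 6.24-fold lower in KO. This bound sets the WT mean of -2.92 against the lowest spots well above background on the KO arrays (mean -5.57). It leaves out the spread among the WT arrays, of which WT 3 read -3.27. With normexp background correction, which lifts dim spots, the difference was -2.15 (adjusted p = 0.00384), smaller than the bound of 2.64 log2 units. The WT signals themselves were dim, at 262 to 308 intensity units against 8.60 to 9.75 on the KO arrays.

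Sod1 encodes the copper and zinc enzyme of the cytosol. It read 7.26, 7.23 and 7.43 on KO 947, 948 and 949 and 7.29, 7.37 and 7.12 on WT 1, 2 and 3. The groups overlapped throughout, and the difference of 0.05 ± 0.15 (adjusted p = 0.890) had a 95% interval from -0.30 to 0.40, which allows a KO level from 19.0% lower to 31.6% higher. Sod1 lies on chromosome 16, as does Bach1, with 87 annotated genes between them, 62 of them protein coding. Of the 18 genes in that interval that were tested, 0 passed in the limma fit, and 3 had an unadjusted p under 0.05.

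Sod2, the manganese enzyme of mitochondria, read 6.97, 6.93 and 6.91 on the KO arrays and 7.24, 7.02 and 7.00 on WT 1, 2 and 3. The highest KO array was under the lowest WT array, by a gap much smaller than the spread among the WT arrays. The difference of -0.15 ± 0.14 did not pass (adjusted p = 0.607, 95% interval -0.48 to 0.19).

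**Figure D2:**
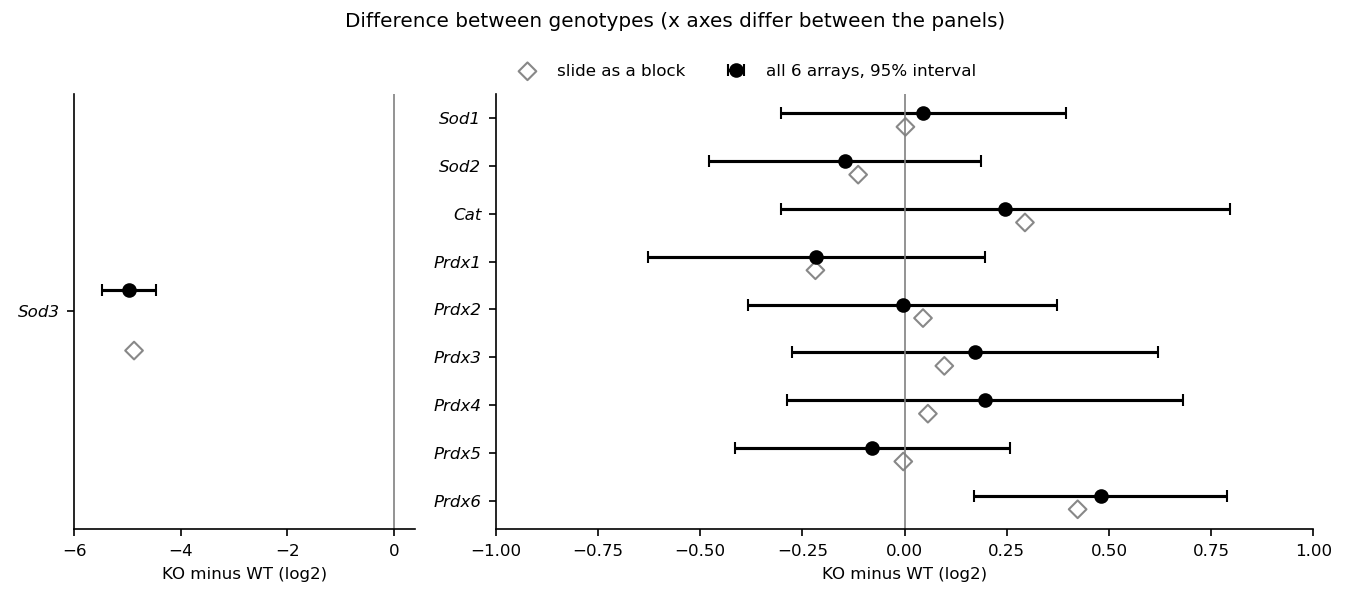
KO minus WT difference of each gene on the log2 scale, with 95% intervals of the limma fit over all 6 arrays (black) and the difference with the slide as a block (open diamonds), for Sod3 on the left and the other 9 genes on the right. The x axis on the right is drawn wider but spans a smaller range of differences than that on the left. The interval of Prdx6 (0.17 to 0.79) lies above 0, and those of the other 8 genes on the right hold 0.

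Catalase was measured by 2 probes. The brighter one read 3.38, 3.30 and 3.32 on KO 947, 948 and 949 and 2.71, 3.56 and 2.99 on WT 1, 2 and 3. The KO arrays lay close together, inside the wide WT range. Their SD was 0.04, against 0.43 in WT. The difference was 0.25 ± 0.23 (adjusted p = 0.596, 95% interval -0.30 to 0.80). The dimmer probe read 0.53, -0.05 and -0.07 in KO and -0.41, 0.36 and -0.05 in WT, a difference of 0.17 (adjusted p = 0.782 over all probes), and on it the KO arrays were not close together (SD 0.34). Both probes were lowest on WT 1 and, among the WT arrays, highest on WT 2.

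Prdx1, a cytosolic peroxiredoxin, gave different pictures on its 2 probes. The brighter probe read 7.21, 7.15 and 7.27 on KO 947, 948 and 949 and 7.60, 7.54 and 7.13 on WT 1, 2 and 3, so that WT 3 was the lowest array of all. Its difference was -0.22 ± 0.17 (adjusted p = 0.535, 95% interval -0.63 to 0.20). The other probe read 5.58, 5.14 and 5.45 in KO and 5.02, 5.77 and 5.28 in WT, a difference of 0.04 ± 0.24 (adjusted p = 0.954 over all probes). WT 1 was the highest array on the first probe and the lowest on the second, so the probes disagree on the order of the mice as well as on the sign.

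Prdx2, the other abundant cytosolic peroxiredoxin and a major protein of red blood cells, read 6.16, 5.99 and 6.17 in KO and 6.27, 6.17 and 5.90 in WT. The means were 6.11 ± 0.10 in KO and 6.11 ± 0.19 in WT (SD, n = 3 each), a difference of -0.00 ± 0.16 (adjusted p = 0.991), with an interval from -0.38 to 0.37. Of 11 erythroid markers 6 were tested and 0 passed in the limma fit (1 had an unadjusted p under 0.05). The log2 of their summed unlogged levels ran from 1.71 to 2.57 on the KO arrays and from 2.29 to 3.46 on the WT arrays.

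Prdx3, the mitochondrial peroxiredoxin, was printed at 10 spots on each array. The SD between its spots ran from 0.03 to 0.07 over the arrays, whereas the SD between mice was 0.10 in KO and 0.30 in WT. The mean over spots was 4.31, 4.35 and 4.49 on KO 947, 948 and 949 and 4.22, 4.50 and 3.90 on WT 1, 2 and 3. The spot SD covers printing and scanning within 1 array only, and the SD between mice also holds labelling and hybridization. The difference of 0.17 ± 0.19 did not pass (adjusted p = 0.652). It was 0.10 when the slide was a block.

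Prdx4 encodes the peroxiredoxin of the endoplasmic reticulum and lies on the X chromosome. It read 4.31, 4.35 and 4.68 in KO and 4.22, 4.55 and 3.97 in WT. The array of the female mouse was the highest in KO and the lowest in WT. The difference between genotypes was 0.20 ± 0.20 (adjusted p = 0.632). The genotype difference was 0.77 larger in the female than in the male mice, which did not pass (limma interaction, adjusted p = 0.770, with 1 female per genotype), and the interaction passed in 0.0254% of genes and in 0 of the 10 members (0 at an unadjusted p under 0.05).

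Prdx5, found in mitochondria, peroxisomes and cytosol, read 7.11, 6.93 and 7.06 in KO and 7.23, 7.08 and 7.03 in WT. It had a difference of -0.08 ± 0.14 (adjusted p = 0.796, 95% interval -0.42 to 0.26), and the groups overlapped.

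Prdx6 differs from the other peroxiredoxins in using a single cysteine and glutathione as the reductant, and it also acts as a phospholipase. Its brightest probe read 6.50, 6.61 and 6.56 on KO 947, 948 and 949 and 6.07, 6.04 and 6.11 on WT 1, 2 and 3. The lowest KO array was over the highest WT array, with little spread in either group. The difference was 0.48 ± 0.13, a fold of 1.39 with a 95% interval from 1.12 to 1.73. Its unadjusted p was 0.00833 and its adjusted p 0.106, so it did not pass, and 20.4% of all genes had an unadjusted p under 0.05. With a trended and robust variance estimate the same difference passed (adjusted p = 0.0231). When the slide was a block, it was 0.42 (adjusted p = 0.272).

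The other probes of Prdx6 were also higher on average in KO, but with overlapping groups. Probe A_55_P2176729 read 5.98, 5.50 and 5.62 in KO and 5.06, 5.54 and 5.29 in WT (difference 0.40 ± 0.21). Probe A_55_P2176731 read 5.71, 5.37 and 5.21 in KO and 4.99, 5.23 and 4.93 in WT (difference 0.38 ± 0.19). On both the highest array was KO 947, and WT 2 lay above at least 1 KO array. Probe A_52_P388359 was dim, at -1.98, -2.71 and -3.65 in KO and -3.62, -3.48 and -3.70 in WT, with KO 949 inside the WT range and a difference of 0.82 ± 0.40. Adjusted over all probes, the p-values of these 3 were 0.368, 0.356 and 0.341. RefSeq lists close copies or pseudogenes of Prdx1, Prdx2 and Prdx6, and whether the probes tell them apart was not tested.

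**Figure D3:**
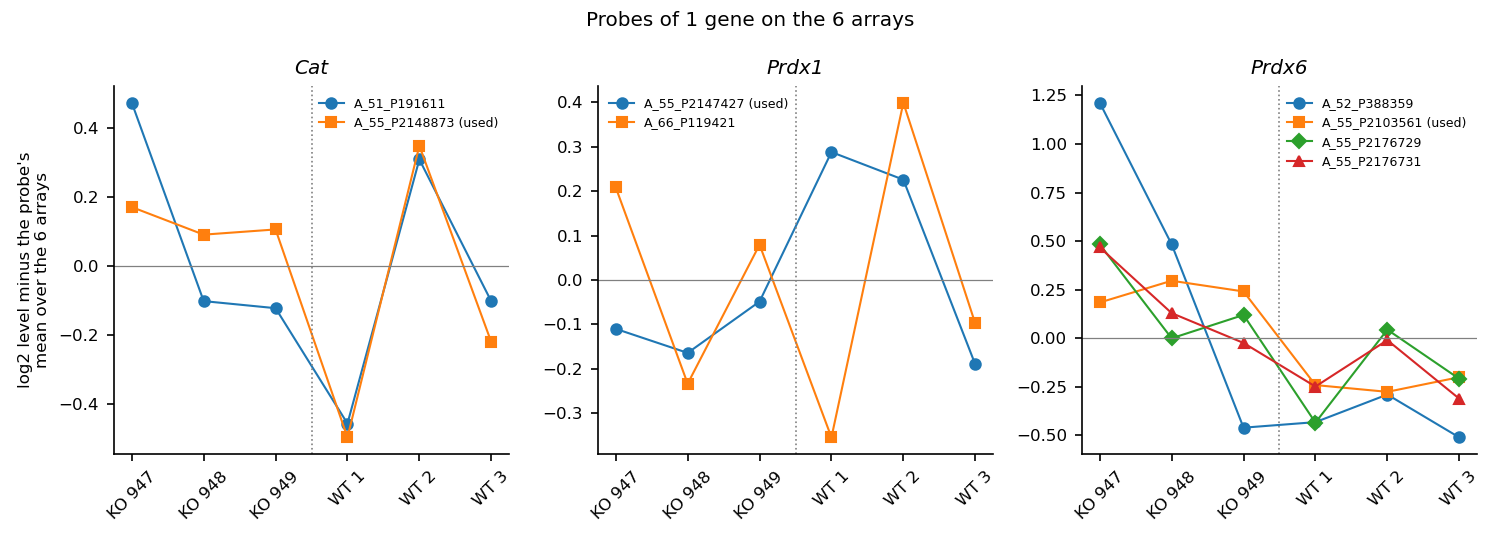
Log2 level of each probe of Cat, Prdx1 and Prdx6 on each array after subtraction of the probe's mean over the 6 arrays, with KO arrays left of the dotted line and WT arrays right of it. The 2 Prdx1 probes run apart on WT 1, and the 4 Prdx6 probes differ in which KO array is highest.

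The spread between cultures of 1 genotype differed over the members. The SD of the KO arrays was below that of the WT arrays in 9 of the 10 genes, all but Prdx6. Over all genes tested, dim ones included, this held in 45.6%. The 9 include Sod3, whose KO SD is that of readings below background. For the 9 genes other than Sod3, the SD ran from 0.03 to 0.21 in KO and from 0.04 to 0.43 in WT. WT 3 was the lowest WT array in 8 of the 10, against 35.6% of all genes, and KO 948 was the lowest KO array in 6 of the 10, against 30.9%. These orders are of scaled levels. WT 3 had the largest 75th percentile of the WT arrays (2523 intensity units) and KO 948 that of the KO arrays (2282). Before scaling, only Sod3 of those 8 was lowest in WT on WT 3, and Sod2 and Prdx5 were highest there. Of the 6 lowest in KO on KO 948, Sod1 was then lowest on KO 947. Sod3, Cat, Prdx1, Prdx2 and Prdx5 were then lowest on KO 949. These counts are descriptions, since the genes share their arrays.

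The tested genes whose profiles over the 6 arrays came nearest to that of Sod3, by the root mean square difference after each gene was centred on its mean, were the smooth muscle calponin Cnn1 (0.31), the matrix protein fibulin Fbln2 (0.50) and the collagen chain Col1a2 (0.52). They were chosen for this likeness, so their lower KO levels are a description. Since Sod3 was below background in KO, the distances and their order are those of the readings and would differ with its true level. Cnn1 read -7.17, -6.84 and -6.54 in KO (none of these arrays well above background) and -1.38, -2.01 and -2.83 in WT. Like Sod3, it was highest on WT 1 and lowest on WT 3.

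Of 14 stromal markers 12 were tested, and all 12 were lower in KO, with 4 past the threshold, beside 2.27% of all genes. Of these 12, 8 were well above background on all 6 arrays. A marker that met the filter through the WT arrays, like Cxcl12, could hardly be higher in KO. The filter therefore partly sets the count of lower markers. The median difference of the 12 was -2.83. The log2 of their summed unlogged levels ran from 2.31 to 2.80 on the KO arrays. On the WT arrays it ran from 3.90 to 5.57, without overlap. Sparc, a secreted matrix protein and one of the 4, read -5.09, -4.96 and -4.59 in KO and 3.78, 3.79 and 1.31 in WT. Cxcl12 was the 1 tested stromal marker with no KO array well above background, and Lum and Pdgfra were not tested. In these bulk cultures, fewer cells of a type and less RNA per cell cannot be told apart, and the part of stromal cells in the Sod3 result was not tested. Markers of other cells were mostly lower in KO, but 2 granulocyte markers and 1 mast cell, basophil or eosinophil marker were higher, without passing. Past the threshold as lower were 4 of 12 dendritic cell, 3 of 10 mast cell, basophil and eosinophil and 1 of 12 granulocyte markers. Among them were Ccr7, Cd83 and Ciita for dendritic cells, the proteases Mcpt8 and Prss34 and the receptor Kit for mast cells and basophils, and S100a9 for granulocytes. The log2 of the summed unlogged levels of dendritic cell markers ran from 8.37 to 8.50 in KO and from 8.94 to 9.18 in WT. For mast cells, basophils and eosinophils it ran from 2.85 to 4.56 in KO and from 4.69 to 5.81 in WT. For granulocytes it ran from 7.95 to 8.16 in KO and from 8.30 to 8.58 in WT. For macrophage markers it lay the other way, from 8.74 to 8.88 in KO and from 8.535 to 8.72 in WT. Of these markers, Mcpt8 had no KO array well above background. Of the 10 tested mast cell, basophil and eosinophil markers, 6 were well above background on all 6 arrays, so the same limit holds for them. When the slide was a block, 1 stromal, 1 dendritic cell and 1 macrophage marker passed, and 0 of the granulocyte and of the mast cell, basophil and eosinophil markers. Of 5 tested endothelial markers 0 passed and 0 had an unadjusted p under 0.05 in the limma fit.

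**Figure D4:**
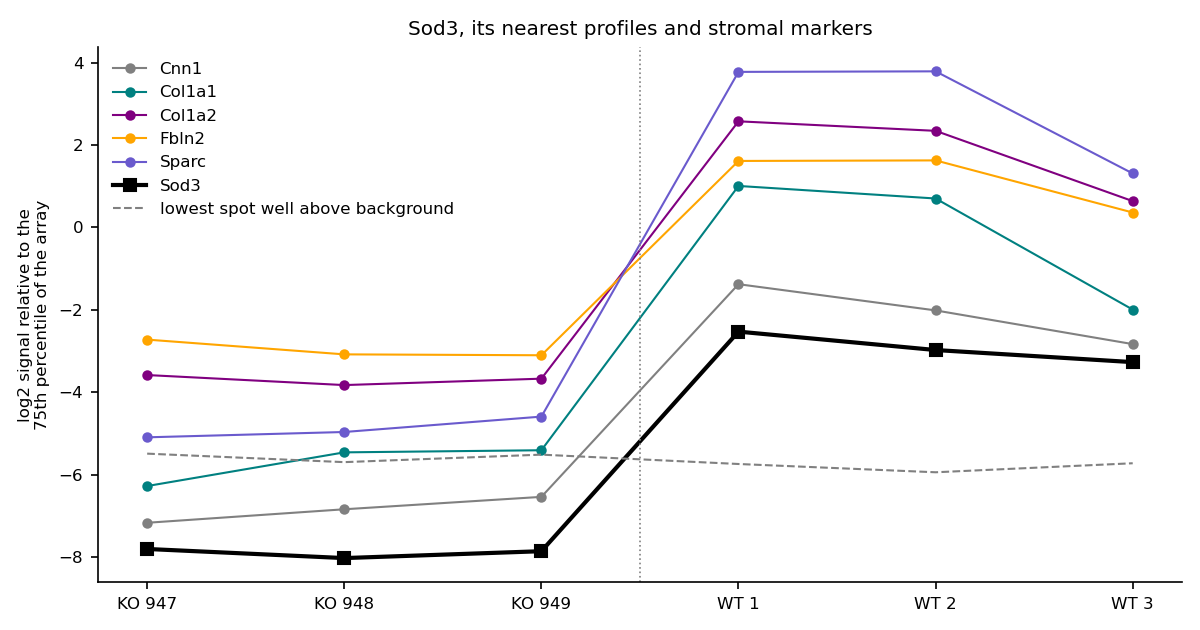
Log2 level of Sod3 (black squares), of the 3 genes with the nearest profiles (Cnn1, Fbln2, Col1a2) and of the stromal markers Sparc and Col1a1 on each array, with KO arrays left of the dotted line and WT arrays right of it; the dashed line is the lowest spot well above background on each array. Sod3 and Cnn1 lie under the dashed line on all KO arrays, and all 6 genes are lowest in WT on WT 3.

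Genes that work with these enzymes were read from the same fit. Of 45 genes in 4 lists, 41 were tested, 1 was higher and 1 lower in KO past the threshold, and 39 did not pass, beside 3.41% of all genes past the threshold, a share near theirs. The median difference was 0.11, against -0.06 when the slide was a block.

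The sources of superoxide, mainly the subunits of the phagocyte NADPH oxidase, had 0 of 13 tested genes past the threshold in the limma fit (1 had an unadjusted p under 0.05) and a median of -0.07 (-0.15 when the slide was a block). Nox4, a constitutively active oxidase, had a difference of -0.40 (adjusted p = 0.320).

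The next list held thioredoxins, their reductases, the thioredoxin inhibitor Txnip and other proteins that reduce or repair peroxiredoxins or act with them. It had 0 of 11 genes past the threshold (3 with an unadjusted p under 0.05). The median was 0.18, and -0.10 with the slide as a block. Txnrd3, a thioredoxin and glutathione reductase, read 0.59, 0.37 and 0.53 in KO and -0.29, -0.00 and -0.06 in WT (difference 0.62 ± 0.15, adjusted p = 0.0845). Sesn1, a sestrin, differed by 0.49 (adjusted p = 0.221). The groups did not overlap in either gene, as in 26.9% of all genes tested. Srxn1 of the same list went the other way (-0.34, limma adjusted p = 0.241), also without overlap.

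The list of copper and manganese delivery and of peroxisomal import had 0 of 11 genes past the threshold, also at an unadjusted p under 0.05, and a median of 0.24. Its largest differences were those of the peroxisomal import factor Pex14 (0.47, adjusted p = 0.411, but -0.05 when the slide was a block) and the copper importer Slc31a1 (0.46, adjusted p = 0.249, but 0.17 when the slide was a block). Both had overlapping groups.

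Glutathione peroxidases, which also remove peroxides, held both partner genes that passed the threshold. Of 6 tested members, Gpx3 passed as higher and Gpx8 as lower in KO, beside 3.41% of all genes past the threshold. The median difference was -0.12 (-0.33 when the slide was a block). Gpx3 encodes a secreted enzyme and read 1.59, 1.57 and 1.55 on the KO arrays and 0.55, 0.25 and 0.23 on the WT arrays (difference 1.23 ± 0.15, adjusted p = 0.0141). Gpx8 encodes a membrane enzyme of the endoplasmic reticulum and read -4.20, -3.75 and -4.30 in KO and -0.89, -1.15 and -1.99 in WT (difference -2.74 ± 0.31, adjusted p = 0.0114). The genotypes lay well apart in both genes. As for Sod3, the lowest WT array of Gpx8 was WT 3. When the slide was a block, neither passed (1.25, adjusted p = 0.0702, for Gpx3 and -2.86, adjusted p = 0.0679, for Gpx8). The call of Gpx3 was also lost without KO 948 (adjusted p = 0.0628) or WT 2 (adjusted p = 0.0588), and that of Gpx8 without WT 1 (adjusted p = 0.0514) or WT 2 (adjusted p = 0.0515).

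**Figure D5:**
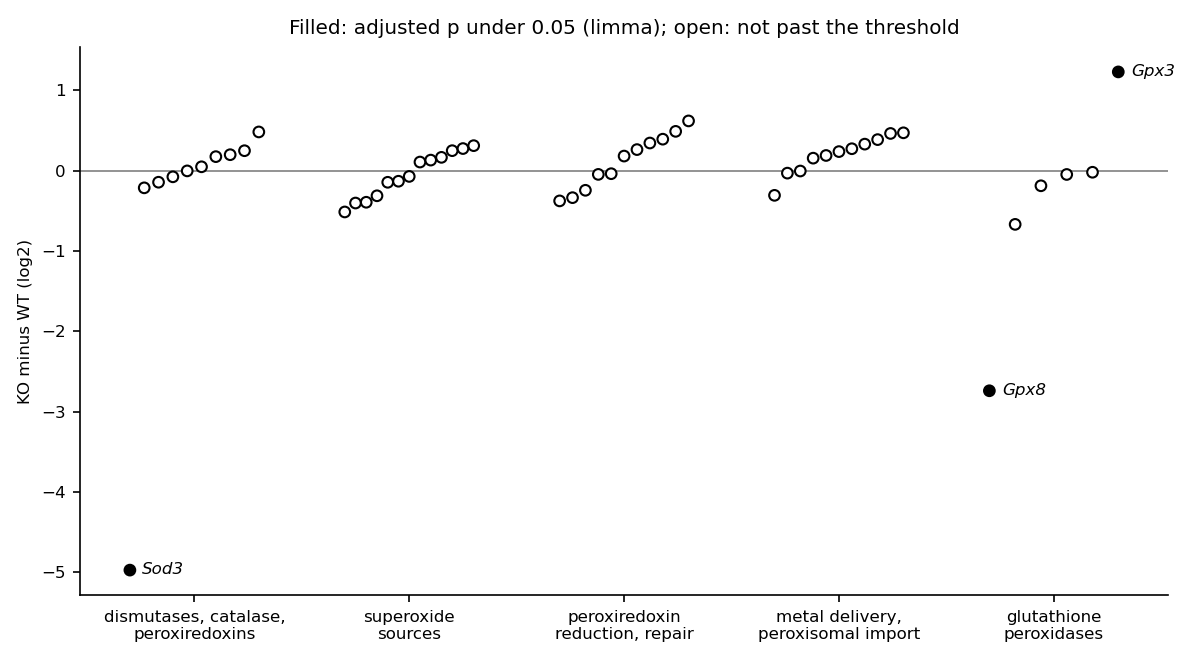
KO minus WT difference on the log2 scale of the 10 genes and of the tested genes of the 4 partner lists, each point 1 gene, ordered within its list; filled points passed limma at an adjusted p under 0.05. Sod3, Gpx8 and Gpx3 are the filled points, and all other genes lie between -0.67 and 0.62.

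The slide and the number of mice limit these results. When the slide was a block, a fit in which the contrast comes from KO 947 only, Sod3 differed by -4.88, its KO readings being below background. That fit put Sod1 at 0.00, Prdx4 at 0.06 and Prdx5 at -0.00. With 3 mice per genotype, the 95% intervals of the other 9 genes were 0.62 to 1.10 log2 units wide from end to end.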

How the data were processed

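RNA of 6 mouse cultures was read on 1-colour arrays. Per the file headers, spot intensity values were extracted by the authors with Agilent Feature Extraction 10.7.3.1 (9.1 per the submitters' processing notes), background-subtracted and detrended within each array, for probes designed on mm9. A deposited table gives centred log2 values of 3215 probes made by the authors, and it served as an alternative only. Of 55681 probes, 26413 received a gene symbol from RefSeq (GRCm38.p6) by transcript accession.

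Processed signals were divided by their array's 75th percentile and log2 transformed. Spots with outlier flags were dropped, and the remaining spots were averaged per probe. A probe entered the fit if it was well above background (on at least 50% of its spots) on at least 3 of 6 arrays, and the brightest such probe stood for its gene (15736 genes). A fold against a group below background is a bound, set by the lowest spot well above background. Genotypes were compared with limma 3.58.1 (R 4.3.3), in two-sided tests with no covariate, and p-values were adjusted over all genes (Benjamini-Hochberg, threshold 0.05). Probe p-values were adjusted over all probes that passed the filter. The fit was tested on simulated data.

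The members and lists were chosen with earlier results of these data known. Named were all members, partner genes past the threshold (up to 4 per list, otherwise the 2 with the largest difference), up to 3 marker genes per list past it, the 3 genes nearest in profile to a member that passed, and Bach1 and Hmox1. Cxcl12, Srxn1, Txnip and the untested markers were named after their values were seen. One gene that the rule names is not reported here. Alternatives changed scaling, background correction, filter, slide, sex, probe choice, outlier spots, variance estimate and each array. Normexp used the median spot and background signals with an offset of 50. Each mouse gave 1 array, so the arrays are biological replicates.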

Additional observations from a re-analysis of the deposited data

How the results depend on the processing

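No paired analysis was possible because the labels give the 2 genotypes different replicate numbers. Sod3 was lower in KO and passed in the 19 alternatives that could test it. This is no independent support for its size: the KO readings (measured differences from -5.16 to -2.15) are below background, Sod3 met the filter through WT, and KO 947 alone sets the contrast with the slide as a fixed block and on the slide with both genotypes. Among the 10 members, 0 passed when a probe had to be well above background on all 6 arrays, since that filter removes Sod3, and 2 passed with a trended and robust variance estimate and in the authors' deposited table, where KO and WT do not overlap in any of the 3215 probes (Sod3 and Prdx6 both times); leaving out 1 array gave 1 each time. Prdx6 had differences of 0.42 to 0.70 and passed in 2 of 20 alternatives. No other member passed in any alternative. Of the partner genes, 0 passed with the slide as a fixed block or on the slide with both genotypes, 1 passed on arrays labelled male only, and 0 to 2 passed when 1 array was left out. Over all genes, 332 passed with quantile normalization, 275 with no filter, 84 with the slide as a fixed block, 255 with it as a random block, 24 on the slide with both genotypes, 305 with sex as a covariate, 182 on arrays labelled male only, 810 with a trended and robust variance estimate and 1734 of 1844 in the authors' deposited table, and 77 (without WT 1) to 900 (without KO 947) when 1 array was left out. Scaling to the array median moved the median difference of all genes to 0.21, and the share of calls that were higher in KO to 62.5%, against 33.5%. It put Sod2 at 0.07, Prdx1 at 0.00, Prdx2 at 0.21 and Prdx5 at 0.14, and the same differences relative to that median were -0.14, -0.21, 0.00 and -0.07. None of these passed. Other differences near 0 also changed sign. Prdx2 was at 0.05 with quantile normalization, 0.06 with normexp, 0.05 with the slide as a fixed block, 0.01 as a random block, 0.05 on the slide with both genotypes, and above 0 without KO 948, WT 1 or WT 2. Prdx5 was at 0.01 with quantile normalization and with normexp. On arrays labelled male only Sod1, Prdx3 and Prdx4 were at -0.09, -0.03 and -0.06. Leaving out 1 array gave Sod1 from -0.02 (without KO 949 or WT 3) to 0.10 and Prdx2 from -0.11 to 0.07. The causes were not tested. Signal over background limits Sod3, whose KO level is only bounded.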
